A study of Mus musculus with 6 samples.

Results

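The 10 genes described here carry sphingosine-1-phosphate (S1P) and lysophosphatidic acid (LPA) signalling: the S1P receptor genes *S1pr1*, *S1pr2* and *S1pr3*, the LPA receptor genes *Lpar1*, *Lpar4* and *Lpar6*, the ceramidase gene *Acer2*, the kinase gene *Sphk1*, the transporter gene *Spns2* and the phosphatase gene *Plpp3*. They were taken by symbol from a list drawn up with earlier results of these data known, and are 10 of the 55416 genes quantified. All 10 passed the filter on low counts. RNA-Seq libraries came from endothelial cells (ECs) sorted by membrane GFP (mGFP) from ventricles of mouse hearts at E15.5 (embryonic day). *ControlΔEC* embryos (3 libraries) were *Wt1*+/+, and *Wt1KOΔEC* embryos (3 libraries) were homozygous for a loxP-flanked *Wt1*. Every embryo of either genotype also carried the *Pdgfb-iCreERT2* driver and 1 *R26-mTmG* reporter allele, and the dams of both were given tamoxifen (75 mg/kg, E11.5 to E13.5), so the controls share Cre, reporter and drug. The reporter marks a cell in which Cre acted on the reporter itself, whereas deletion of *Wt1* in that cell is a separate event. Each library is a pool of sorted cells, and neither the labels nor the methods say how many embryos a pool held.

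S1P is made inside the cell from ceramide. A ceramidase such as ACER2 frees sphingosine, a sphingosine kinase such as SPHK1 phosphorylates it, and SPNS2 carries the product out of ECs to receptors on the cell surface. LPA is made mainly outside the cell and acts through its own receptors. S1PR1 couples to the inhibitory G protein Gi and is known for firming junctions and restraining sprouting of vessels, S1PR2 and S1PR3 also couple to G12/13, and LPAR4 and LPAR6 are LPA receptors of the P2Y family with known roles in vessel growth. PLPP3 dephosphorylates LPA and S1P at the cell surface.

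The libraries held 26037324 to 44779020 counts, so that 3 counts, taken as the floor of detection, amount to 0.0608 to 0.119 CPM, the counts scaled to a common library total. Levels are given as CPM with edgeR's TMM factors, and the floor covers counting error only. The targeted gene, *Wt1*, was at 109 to 149 CPM in *ControlΔEC* and 14.0 to 21.3 CPM in *Wt1KOΔEC* libraries. The 12 EC markers were all detected, with a summed level of 6884 to 8361 CPM in *ControlΔEC* and 6752 to 7829.5 CPM in *Wt1KOΔEC*. RNA of genes used as markers of other cell types was present as well. The paper takes *Col3a1* as a venous, *Rgs5* as an arterial and *Col1a1* as both a venous and a fibroblast marker. It describes cardiomyocyte, epicardial and fibroblast genes as relatively low in counts and takes this as evidence for its sort. In heart sections it saw no mGFP in the ventricular endocardium or epicardium. Which cells the marker sums came from was not tested here. No marker of these lists was at 0 in every library. *Nkx2-5* (cardiomyocytes) and *Myh11* (smooth muscle) were at 0 in 4 of 6 libraries each. *Wif1* (fibroblasts) was at 0 in the 3 *ControlΔEC* libraries. Fibroblast markers (10 genes, highest *Col3a1*) summed to 689 to 1004 CPM in *ControlΔEC* and 1366 to 1579 CPM in *Wt1KOΔEC*, with 6 genes higher in every *Wt1KOΔEC* library, among them *Col1a1*, which passed the threshold. Mural cell markers (9 genes, highest *Abcc9*) summed to 468 to 636 and 326 to 382 CPM, with 4 genes lower in every *Wt1KOΔEC* library. Endocardial markers (5 genes, highest *Nfatc1* or *Plvap*) summed to 313 to 405 and 669.9 to 767 CPM, with 2 genes higher in every *Wt1KOΔEC* library, of which *Plvap* passed the threshold. *Plvap* alone was at 58.4 to 82.7 CPM in *ControlΔEC* and 321 to 361 CPM in *Wt1KOΔEC*, and *Nfatc1* overlapped between genotypes. Lymphatic EC markers (5 genes, highest *Flt4*) summed to 274 to 283 and 284 to 384 CPM, and epicardial markers without *Wt1* (5 genes, highest *Clu*) to 29.5 to 43.8 and 56.6 to 60.6 CPM. *ControlΔEC* replicate 2 stood apart from the other libraries: its macrophage sum (7 genes, highest *Csf1r*) was 789 CPM against 209 to 376 CPM, and its erythroid sum (7 genes, highest *Hba-a1*) was 14338 CPM against 5105 to 8722 CPM. Cardiomyocyte markers (6 genes, highest *Myh7*) summed to 72.3 to 177 CPM over all libraries. In such bulk libraries fewer cells of a type and less RNA per cell cannot be told apart. The p-values weigh a difference between genotypes against the spread between these libraries.

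Of the 10 genes, *Acer2* and *S1pr1* were higher in every *Wt1KOΔEC* library than in every *ControlΔEC* library, *Lpar4* was lower in every one, and the libraries of the genotypes overlapped for the other 7. Among all genes tested, 10.4% were higher and 8.95% lower without overlap. The same 3 genes had an unadjusted p under 0.05 in edgeR's quasi-likelihood test, which 5.96% of all tested genes had with a higher and 7.12% with a lower level in *Wt1KOΔEC*. No member passed the threshold of an adjusted p under 0.05 with an absolute log2 fold change above 0.58 in edgeR's quasi-likelihood test, a threshold that 12 of 16296 genes (0.0736%) passed. With DESeq2, *Acer2* and *Lpar4* passed the same threshold, as did 4.83% of the genes to which DESeq2 gave an adjusted p. The median log2 fold change (*Wt1KOΔEC* over *ControlΔEC*) was 0.23 over the 10 genes and -0.03 over all genes tested.

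**Figure D1:**
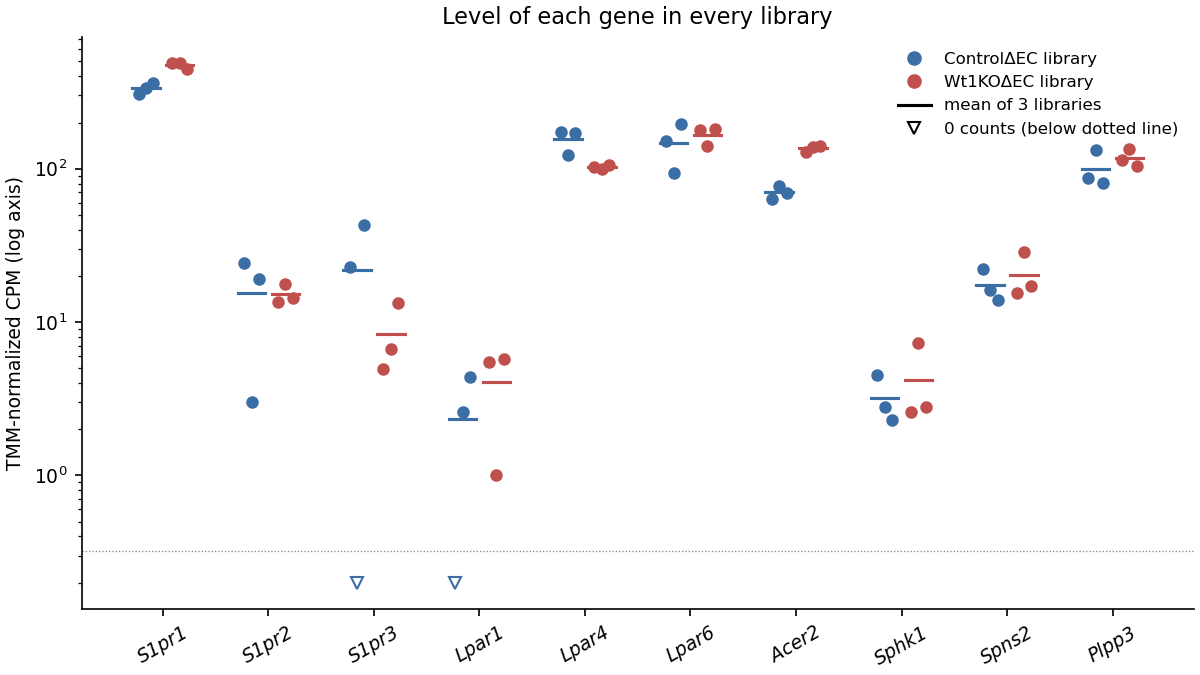
Level of each of the 10 genes in every library, in TMM-normalized CPM on a log axis; points are libraries (blue, *ControlΔEC*; red, *Wt1KOΔEC*), horizontal lines the mean of 3 libraries and open triangles libraries with 0 counts. *S1pr1* and *Acer2* have all red points above all blue points, *Lpar4* has all red points below, and *S1pr2*, *S1pr3* and *Lpar1* scatter widely among *ControlΔEC* libraries.

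Per kb of exonic length, the scale on which levels can be set side by side between genes, *S1pr1* stood first in both genotypes, at 80.8 ± 6.65 CPM per kb in *ControlΔEC* and 114.9 ± 6.11 CPM per kb in *Wt1KOΔEC* (SD, n = 3). In *ControlΔEC* it was followed by *Lpar4* (35.3 ± 6.41), *Lpar6* (27.2 ± 9.34) and *Plpp3* (24.6 ± 6.99 CPM per kb), whose ranges overlapped from one to the next. *Acer2* came next at 9.23 ± 0.920 CPM per kb, and its range already overlapped that of *S1pr3* (4.46 ± 4.37). *Spns2* (2.61 ± 0.643), *S1pr2* (1.52 ± 1.09), *Sphk1* (0.574 ± 0.209) and *Lpar1* (0.289 ± 0.275 CPM per kb) closed the order, each overlapping its neighbour. The level of the kinase gene *Sphk1* per kb was thus among the lowest of the set, and that of the receptor gene *S1pr1* the highest. *Sphk2*, a second S1P-producing kinase gene outside the set, was at 3.04 ± 0.732 CPM per kb in *ControlΔEC*.

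In *Wt1KOΔEC* libraries the order per kb was *Lpar6* (30.9 ± 4.27) and *Plpp3* (28.9 ± 3.78) after *S1pr1*, with overlapping ranges. *Lpar4* followed at 23.1 ± 0.728 and *Acer2* at 17.9 ± 0.832 CPM per kb, each apart from both of its neighbours in the order. *Lpar4* thus stood in place 2 in *ControlΔEC* and in place 4 in *Wt1KOΔEC*. The order of *Lpar4* and *Acer2* in *Wt1KOΔEC* turned with the longest transcript's length in place of the union of exons, which gave 23.4 CPM per kb for *Lpar4*, 30.7 for *Acer2*, 30.9 for *Lpar6* and 32.9 for *Plpp3*, and 15.8 CPM per kb for *Acer2* in *ControlΔEC*. *Spns2* (3.04 ± 1.05), *S1pr3* (1.70 ± 0.910) and *S1pr2* (1.49 ± 0.217) overlapped, as did *Sphk1* (0.759 ± 0.474) and *Lpar1* (0.507 ± 0.330 CPM per kb).

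*S1pr1* (ENSMUSG00000045092.9; GRCm39, chromosome 3, 115504071 to 115508721, minus strand) encodes the main S1P receptor of ECs. It was at 306, 336 and 361 CPM in *ControlΔEC* replicates 1, 2 and 3, and at 489, 491 and 446 CPM in *Wt1KOΔEC* replicates 1, 2 and 3. Every *Wt1KOΔEC* library lay above every *ControlΔEC* library. The means were 334 ± 27.5 and 475 ± 25.3 CPM (SD, n = 3), a 1.42-fold difference (log2 fold change 0.51, standard error 0.14), with an unadjusted p of 0.00584 and an adjusted p = 0.220 in edgeR's quasi-likelihood test. In DESeq2 its adjusted p was 0.00512, but its log2 fold change of 0.50 was under the limit. Over all alternatives the adjusted p ran from 0.00512 to 0.537 and the log2 fold change from 0.45 to 0.57. The summed endocardial, fibroblast and epicardial marker levels given above were higher in *Wt1KOΔEC* libraries too, the endocardial sum largely through *Plvap*. The lymphatic sum was barely so, at 283.6 CPM in *Wt1KOΔEC* replicate 3 against 283.0 CPM in *ControlΔEC* replicate 2. The part of these sums in the level of *S1pr1* was not tested. As a share of the summed level of the 12 EC markers, *S1pr1* was at 3.66%, 4.88% and 4.64% in *ControlΔEC* and at 6.24%, 6.32% and 6.60% in *Wt1KOΔEC* libraries, again without overlap.

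*S1pr2* (ENSMUSG00000043895.7; chromosome 9, 20873657 to 20914139, minus strand) and *S1pr3* (ENSMUSG00000067586.5; chromosome 13, 51561702 to 51576833, plus strand) encode the receptors that also couple to G12/13. *S1pr2* was at 24.3, 3.00 and 19.1 CPM in *ControlΔEC* replicates 1, 2 and 3 and at 13.5, 17.6 and 14.2 CPM in *Wt1KOΔEC* replicates 1, 2 and 3. *S1pr3* was at 22.7, 0 and 42.6 CPM in *ControlΔEC* replicates 1, 2 and 3 and at 4.91, 6.65 and 13.3 CPM in *Wt1KOΔEC* replicates 1, 2 and 3. For both genes *ControlΔEC* replicate 2 was the lowest library, and for *S1pr3*, with 0 counts there, only the floor of 0.0608 CPM can be given. The genotypes overlapped for both.

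The log2 fold change of *S1pr2* was -0.03 (standard error 0.60, adjusted p = 0.991, edgeR's quasi-likelihood test) and that of *S1pr3* was -1.39 (standard error 1.33, adjusted p = 0.752 in the same test). Without *ControlΔEC* replicate 2, the log2 fold change of *S1pr3* was -1.98 (unadjusted p = 0.00230, adjusted p = 0.145, edgeR's quasi-likelihood test). Every *Wt1KOΔEC* library was then below the remaining *ControlΔEC* libraries, which leaving out the library with 0 counts already fixes. Across alternatives the adjusted p of *S1pr3* ran from 0.145 to 0.966, and limma-voom, which works on log values, gave a log2 fold change of 2.54 in the other direction. The mural marker sum was 599, 468 and 636 CPM in *ControlΔEC* replicates 1, 2 and 3 and 326 to 382 CPM in *Wt1KOΔEC* libraries. Single mural markers, named after their values were seen, differed. Among *ControlΔEC* libraries, *Rgs5* (165, 26.8 and 163 CPM), *Pdgfrb* (64.0, 39.6 and 66.8 CPM), *Cspg4* and *Acta2* were lowest in replicate 2. *Abcc9* (233, 289 and 267 CPM), which made up much of the sum, *Kcnj8*, *Notch3* and *Tagln* were not. In *Wt1KOΔEC* *Rgs5* was at 17.9 to 25.4 CPM and *Abcc9* at 176 to 238 CPM. The part of mural cells in the levels of these receptors was not tested.

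Summed over the 5 S1P receptor genes, the level per kb was 82.0, 82.7 and 98.1 CPM per kb in *ControlΔEC* and 123, 123 and 114 CPM per kb in *Wt1KOΔEC* libraries. The genotypes did not overlap, which follows in the main from *S1pr1*. *S1pr1* made up 89.0% to 98.2% of this sum in *ControlΔEC* and 94.7% to 96.1% in *Wt1KOΔEC*, which overlapped. *S1pr4*, a receptor of blood cells that is not one of the 10 genes, was at 2.21, 2.07 and 0.485 CPM in *ControlΔEC* and 6.83, 3.96 and 4.59 CPM in *Wt1KOΔEC* (log2 fold change 1.68, standard error 0.71, adjusted p = 0.362, edgeR's quasi-likelihood test). *S1pr5* had at most 50 counts in any library and was not tested.

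*Lpar4* (ENSMUSG00000049929.8; GRCm39, chromosome X, 105964206 to 105977506, plus strand) was the member of the set that was lower in *Wt1KOΔEC* without overlap. It was at 173, 123 and 171 CPM in *ControlΔEC* replicates 1, 2 and 3 and at 102, 99.0 and 105 CPM in *Wt1KOΔEC* replicates 1, 2 and 3. The *Wt1KOΔEC* libraries lay close together, under the lowest *ControlΔEC* library. The means of 156 ± 28.3 and 102 ± 3.21 CPM (SD, n = 3) differed 1.53-fold. The log2 fold change was -0.61 (standard error 0.17), with an unadjusted p of 0.00617 and an adjusted p = 0.220 in edgeR's quasi-likelihood test, and an adjusted p = 0.0201 in DESeq2.

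The fold change of *Lpar4* depended on whether offsets for gene length and GC content were used, which were not fitted apart. Its longest transcript holds 33.7% G and C, and the 500 tested genes nearest to it in that measure (30.8% to 38.6%) had a median log2 fold change of -0.30, with 67.6% of them lower in *Wt1KOΔEC*. With offsets for gene length and GC content, the log2 fold change of *Lpar4* was -0.22 (adjusted p = 0.817, edgeR's quasi-likelihood test), and over all alternatives its adjusted p ran from 0.0201 to 0.817. The mural marker sum was also lower in *Wt1KOΔEC* libraries, and its part in the level of *Lpar4* was not tested. For *S1pr1* (47.0% G and C) and *Acer2* (47.9%) the medians of the 500 nearest genes were -0.02 and -0.05, and the offsets left their log2 fold changes at 0.50 and 0.96.

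*Lpar6* (ENSMUSG00000033446.8; chromosome 14, 73475335 to 73480734, plus strand) encodes a related LPA receptor and lies within *Rb1*, which is read from the other strand. It was at 152, 93.8 and 194 CPM in *ControlΔEC* replicates 1, 2 and 3 and at 179, 140.1 and 181 CPM in *Wt1KOΔEC* replicates 1, 2 and 3. The genotypes overlapped (log2 fold change 0.18, standard error 0.25, adjusted p = 0.851, edgeR's quasi-likelihood test). With length and GC content offsets its log2 fold change was 0.44, still with an adjusted p of 0.555 in that test. *Lpar6* shares 408 exonic bases with *Rb1*, whose level was 22.3 to 30.9 CPM in *ControlΔEC* and 12.0 to 18.1 CPM in *Wt1KOΔEC*, and without strand the reads of the shared bases cannot be told apart.

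The longest transcript of *Lpar6* holds 36.4% G and C, and the 500 tested genes nearest to it had a median log2 fold change of -0.28. The counts of *Lpar4* were 1.14, 1.31 and 0.883 times those of *Lpar6* in *ControlΔEC* replicates 1, 2 and 3, and 0.568, 0.707 and 0.584 times in *Wt1KOΔEC* replicates 1, 2 and 3. Every *Wt1KOΔEC* ratio was below every *ControlΔEC* ratio, a description given with no test, since *Lpar4* alone was already lower in all of them and the counts of *Lpar6* can hold reads of *Rb1*. Per kb, *Lpar4* made up 50.8% to 61.1% of the sum of the 6 LPA receptor genes in *ControlΔEC* and 40.2% to 46.1% in *Wt1KOΔEC*, and *Lpar6* 38.0% to 47.0% and 53.3% to 57.8%. The sum itself overlapped between genotypes, at 45.7 to 76.6 and 48.7 to 58.4 CPM per kb.

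*Lpar1* (ENSMUSG00000038668.15; chromosome 4, 58435250 to 58554635, minus strand), an LPA receptor gene used widely by fibroblasts, was at 0, 2.57 and 4.40 CPM in *ControlΔEC* and at 5.50, 1.01 and 5.70 CPM in *Wt1KOΔEC* libraries. The genotypes overlapped at a level close to the bottom of the set, where 1 library with 0 counts (floor 0.0670 CPM) weighs heavily (log2 fold change 0.81, standard error 1.38, adjusted p = 0.887, edgeR's quasi-likelihood test). Leaving out *ControlΔEC* replicate 1 gave a log2 fold change of 0.23 and leaving out *ControlΔEC* replicate 3 gave 1.66, and limma-voom gave 2.83. *Lpar2* and *Lpar3* were at most at 0.435 and 2.32 CPM in any library, and *Lpar5* was not tested.

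*Acer2* (ENSMUSG00000038007.15; GRCm39, chromosome 4, 86792537 to 86853061, plus strand) encodes the Golgi ceramidase that frees sphingosine. It had the largest difference relative to its standard error among the 10 genes. It was at 63.8, 77.6 and 69.1 CPM in *ControlΔEC* replicates 1, 2 and 3 and at 129, 139 and 141 CPM in *Wt1KOΔEC* replicates 1, 2 and 3. The lowest *Wt1KOΔEC* library was well above the highest *ControlΔEC* library. The means were 70.2 ± 6.99 and 136 ± 6.32 CPM (SD, n = 3), a 1.94-fold difference.

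The log2 fold change of *Acer2* was 0.96 (standard error 0.15), and its unadjusted p of 0.000124 was number 20 among 16296 genes ordered by p. The adjusted p was 0.0967 in edgeR's quasi-likelihood test and 1.98e-07 in DESeq2, and without a filter on low counts edgeR gave 0.00674. Over all alternatives the adjusted p ran from 1.98e-07 to 0.346, while the log2 fold change stayed between 0.89 and 1.04. As a share of the 12 EC markers, *Acer2* was at 0.763%, 1.13% and 0.888% in *ControlΔEC* and at 1.65%, 1.79% and 2.08% in *Wt1KOΔEC* libraries, without overlap. *Acer2* shares 704, 342 and 51 exonic bases with 3 long non-coding RNA genes on the other strand (*Gm69733*, *Gm69729* and *Gm69730*), so that reads of those bases cannot be assigned. The endocardial, fibroblast and epicardial marker sums were higher in the same libraries as *Acer2*, the endocardial sum largely through *Plvap*. The part of these sums in the level of *Acer2* was not tested.

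The 250 bases before the starts of *Acer2* and *Lpar4*, the genes that passed the threshold in DESeq2 and differed in opposite directions, are printed from RefSeq on GRCm38.p6, at chr4:86874164-86874413 and chrX:106920375-106920624, both on the plus strand. Capitals mark matches to a GC box (GGGGCGG) or a TATA box (TATAAA) on either strand.
Acer2: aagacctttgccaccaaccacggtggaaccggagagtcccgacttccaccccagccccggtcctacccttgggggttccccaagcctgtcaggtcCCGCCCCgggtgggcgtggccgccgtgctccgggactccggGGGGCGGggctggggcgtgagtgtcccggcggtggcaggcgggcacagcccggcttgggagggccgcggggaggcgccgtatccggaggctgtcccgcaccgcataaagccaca
Lpar4: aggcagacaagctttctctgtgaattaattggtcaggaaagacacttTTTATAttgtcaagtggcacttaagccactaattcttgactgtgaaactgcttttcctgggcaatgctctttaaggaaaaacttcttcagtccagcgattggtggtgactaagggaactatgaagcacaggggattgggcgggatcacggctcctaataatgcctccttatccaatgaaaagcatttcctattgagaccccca
The stretch before *Acer2* holds 73.2% G and C and 2 GC boxes, which begin 155 and 114 bases before the start, and the stretch before *Lpar4* holds 43.6% G and C and 1 TATA box, 203 bases before the start. The median G and C content over 32817 such stretches was 52.4%, and 21% of them held the GC box and 12.4% the TATA box. *S1pr1* had no such stretch, so it was not searched. The WT1-type motif GCGTGGGAG, the EGR-type motif GCGGGGGCG and the repeat TCCTCCTCC, searched on both strands, were found in none of the other 9 genes of the set, and in 0.405%, 2.57% and 2.45% of all stretches. The shorter GTGGGAG, which is the end of the WT1-type motif, was found in *Sphk1* of the 9 and in 8.25% of all stretches. The GC box was also found before *Lpar1* and the TATA box before *Sphk1*. The EGR-type motif and the GC box can overlap in part. These matches describe letters in a window and say nothing of binding.

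*Sphk1* (ENSMUSG00000061878.17; chromosome 11, 116421751 to 116427501, plus strand), the kinase gene that turns sphingosine into S1P, was at 4.49, 2.78 and 2.29 CPM in *ControlΔEC* and at 2.58, 7.24 and 2.81 CPM in *Wt1KOΔEC* libraries. The genotypes overlapped, and *Wt1KOΔEC* replicate 2 was the highest library (log2 fold change 0.40, standard error 0.63, adjusted p = 0.875, edgeR's quasi-likelihood test). Without that library the log2 fold change was -0.24. The second kinase gene, *Sphk2*, was at 17.2 to 28.1 CPM in *ControlΔEC* and 19.8 to 28.5 CPM in *Wt1KOΔEC*, which overlapped as well. *Sphk1* shares 192 exonic bases with the antisense gene *Sphkos*.

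*Spns2* (ENSMUSG00000040447.16; chromosome 11, 72342463 to 72380840, minus strand) encodes the S1P transporter of ECs. It was at 22.2, 16.3 and 13.9 CPM in *ControlΔEC* and at 15.4, 28.4 and 17.2 CPM in *Wt1KOΔEC* libraries. As for *Sphk1*, *Wt1KOΔEC* replicate 2 was the highest library and the genotypes overlapped (log2 fold change 0.22, standard error 0.31, adjusted p = 0.855, edgeR's quasi-likelihood test). Without it the log2 fold change was -0.10.

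*Plpp3* (ENSMUSG00000028517.9; chromosome 4, 105014421 to 105089964, plus strand), the gene of the phosphatase that ends LPA and S1P signals at the cell surface, was at 87.3, 133 and 80.4 CPM in *ControlΔEC* and at 114, 135 and 105 CPM in *Wt1KOΔEC* libraries. *ControlΔEC* replicate 2 lay among the *Wt1KOΔEC* libraries and the other *ControlΔEC* libraries below them (log2 fold change 0.23, standard error 0.22, adjusted p = 0.741, edgeR's quasi-likelihood test). Without *ControlΔEC* replicate 2 the log2 fold change was 0.49 (adjusted p = 0.269, edgeR's quasi-likelihood test, within a range of 0.269 to 0.946 over all alternatives). The genotypes then no longer overlapped, which leaving out that library already fixes. *Plpp3* shares 540 exonic bases with *Gm29838*, *Spns2* 134 with *Mybbp1a*, *S1pr2* 122 with *Mrpl4*, *S1pr3* 134 with *Gm32834* and *S1pr1* 50 with *Gm9889*, all on the other strand.

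**Figure D2:**
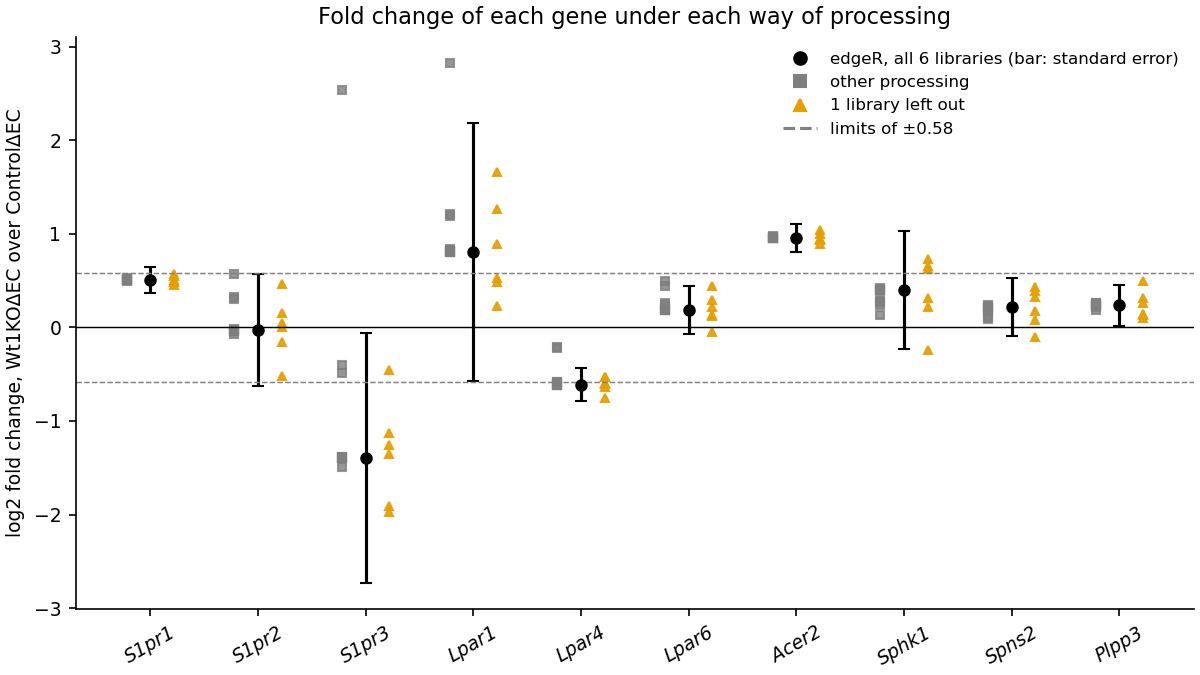
Log2 fold change (*Wt1KOΔEC* over *ControlΔEC*) of each gene in edgeR with all 6 libraries (black points, bars 1 standard error), under other ways of processing (grey squares) and with 1 library left out (orange triangles); dashed lines mark the limits of 0.58 in either direction. *S1pr1* (0.45 to 0.57) and *Acer2* (0.89 to 1.04) stay in a narrow band, *Lpar4* stays below 0 but moves to -0.21 with length and GC content offsets and the replicate block, and *S1pr2*, *S1pr3*, *Lpar6*, *Sphk1* and *Spns2* cross 0 in at least 1 alternative.

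Ratios of counts within a library do not depend on how libraries are scaled to each other. The counts of *S1pr1* were 1.77, 2.72 and 2.10 times those of *Lpar4* in *ControlΔEC* and 4.79, 4.96 and 4.23 times in *Wt1KOΔEC* libraries. *Acer3* encodes a further ceramidase, and the counts of *Acer2* were 5.43, 4.47 and 4.92 times those of *Acer3* in *ControlΔEC* and 8.49, 11.9 and 7.86 times in *Wt1KOΔEC* libraries. *Sgpl1* encodes the lyase that degrades S1P for good, and its counts were 1.92, 1.73 and 2.08 times those of *Acer2* in *ControlΔEC* and 0.758, 0.633 and 0.605 times in *Wt1KOΔEC* libraries. These 3 ratios did not overlap between genotypes, which the genes that form them already fix in the main (*S1pr1* and *Acer2* higher, *Lpar4* and *Sgpl1* lower, in every *Wt1KOΔEC* library), so they are given as sizes with no test, whereas the ratio of *Sphk2* to *Sphk1* overlapped (3.10 to 11.0 in *Wt1KOΔEC*, 5.04 to 10.1 in *ControlΔEC*). *Lpar4* as a share of the 12 EC markers was 1.79% to 2.20% in *ControlΔEC* and 1.27% to 1.56% in *Wt1KOΔEC*, without overlap, and the shares of the 7 remaining genes overlapped.

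**Figure D3:**
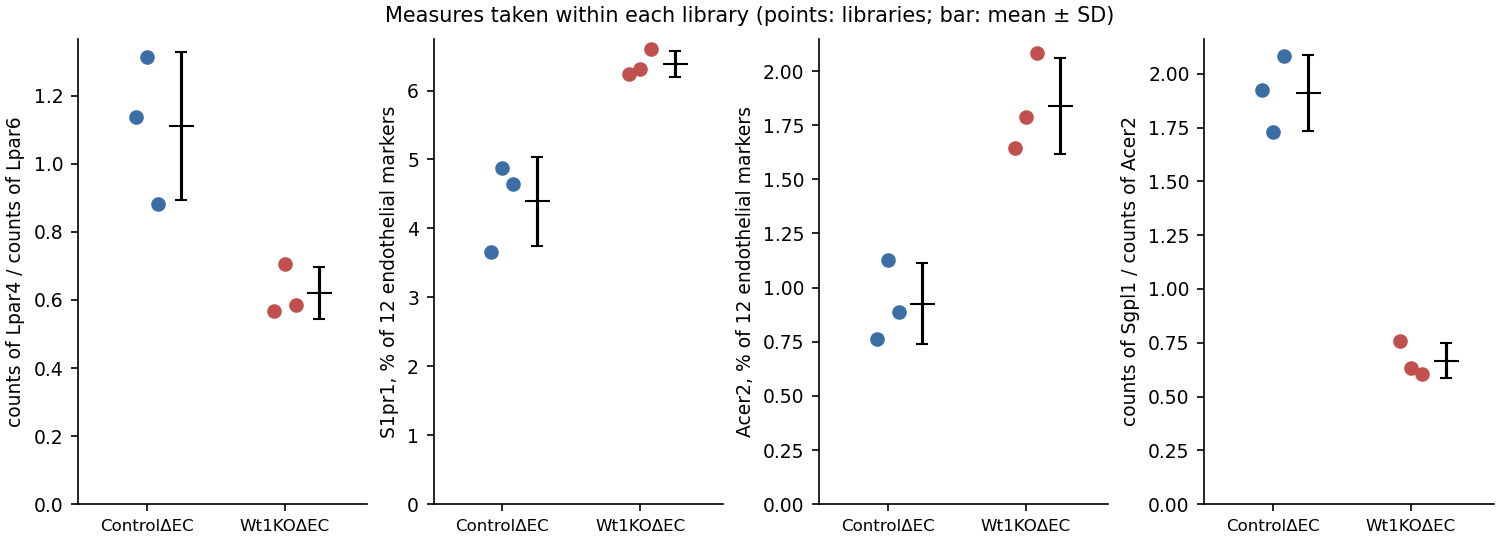
Measures taken within each library for *ControlΔEC* (blue) and *Wt1KOΔEC* (red): *Lpar4* counts over *Lpar6* counts, *S1pr1* and *Acer2* as percent of the summed CPM of 12 EC markers, and *Sgpl1* counts over *Acer2* counts; points are libraries, bars the mean ± SD of 3, and every axis starts at 0. In each panel the genotypes do not overlap; the *Sgpl1* to *Acer2* ratio is 1.73 to 2.08 in *ControlΔEC* and 0.605 to 0.758 in *Wt1KOΔEC*.

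The wider S1P and LPA pathway was read from 75 genes, the 10 members among them. Of these, 66 were tested, 29 with a higher and 37 with a lower level in *Wt1KOΔEC*, and the median log2 fold change was -0.05. An unadjusted p under 0.05 in edgeR's quasi-likelihood test was found for 3 genes with a higher and 9 with a lower level, and 4 and 11 genes did not overlap between genotypes in these directions. Over all genes tested the shares were 5.96% and 7.12% by that p and 10.4% and 8.95% without overlap. None passed the threshold in edgeR's quasi-likelihood test (0.0736% of all genes). In DESeq2 5 genes passed (4.83% of all genes), *Acer2* with a higher and *Lpar4*, *Sgms1*, *Arhgef12* and *Rock1* with a lower level. *Acer1*, *Sptlc3*, *Sptssb* and *Apom* had no count in any library, and *S1pr5*, *Lpar5*, *Cers1*, *Cers3* and *Degs2* were under the filter.

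Sphingolipid enzymes around *Acer2* are described next. *Sgms1*, the gene of the enzyme that turns ceramide into sphingomyelin, was at 132, 165 and 124 CPM in *ControlΔEC* and at 81.5, 70.3 and 86.8 CPM in *Wt1KOΔEC* libraries. All *Wt1KOΔEC* libraries were lower (log2 fold change -0.82, standard error 0.17, adjusted p = 0.130 in edgeR's quasi-likelihood test and 0.000854 in DESeq2, and between 0.000854 and 0.426 over all alternatives). With length and GC content offsets the log2 fold change of *Sgms1* was -0.64. *Sgpl1* was at 123, 134 and 144 CPM in *ControlΔEC* and at 97.7, 87.9 and 85.1 CPM in *Wt1KOΔEC* libraries, also without overlap (log2 fold change -0.57, standard error 0.15, adjusted p = 0.209, edgeR's quasi-likelihood test). In DESeq2 the adjusted p of *Sgpl1* was 0.00515, but its log2 fold change of -0.57 did not reach the limit. *Asah2*, the gene of the neutral ceramidase, was at 20.3, 20.7 and 18.2 CPM in *ControlΔEC* and at 8.95, 12.1 and 13.3 CPM in *Wt1KOΔEC* libraries (log2 fold change -0.79, standard error 0.26, adjusted p = 0.265, edgeR's quasi-likelihood test), so that this ceramidase gene and *Acer2* lay on opposite sides. *Asah1*, the gene of the lysosomal ceramidase, was at 78.4 to 81.6 CPM in *ControlΔEC* and 69.1 to 81.3 CPM in *Wt1KOΔEC*, which overlapped.

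Of the 21 tested genes of ceramide and sphingomyelin supply, 12 had a lower level in *Wt1KOΔEC*, as did 8474 of all 16296 genes tested, and for 3 of the 12 the unadjusted p was under 0.05 in edgeR's quasi-likelihood test, against 7.12% of all genes. Beside *Sgms1* these were *Rtn4* (log2 fold change -0.83, standard error 0.28), whose product Nogo-B restrains serine palmitoyltransferase in ECs, and *Sptlc1* (-0.57, standard error 0.22), a subunit gene of that enzyme. *Cerk*, the ceramide kinase gene, had a log2 fold change of -0.45 with overlap between genotypes. Among the 6 genes of breakdown, *Plpp1*, a relative of *Plpp3*, was at 145 to 235 CPM in *ControlΔEC* and 129 to 136 CPM in *Wt1KOΔEC* (log2 fold change -0.43, standard error 0.20). Without *ControlΔEC* replicate 1 the log2 fold change was -0.19 for *Plpp1* and -0.48 for *Rtn4*. *Pla1a*, the gene of a phospholipase placed in the LPA synthesis group of the list, was at 0.446 to 7.44 CPM in *ControlΔEC* and 0.358 to 1.18 CPM in *Wt1KOΔEC*. *ControlΔEC* replicate 2 was again the lowest of its genotype. The adjusted p in edgeR's quasi-likelihood test ran from 0.268 to 0.476 over these 5 genes.

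Downstream of the receptors, 19 genes of receptor trafficking and coupling were tested, of which 7 had a higher and 12 a lower level in *Wt1KOΔEC* and 3, all lower, an unadjusted p under 0.05 in edgeR's quasi-likelihood test (7.12% of all genes). *Rock1* and *Rock2*, genes of kinases that act on the actomyosin cytoskeleton, were both lower in every *Wt1KOΔEC* library. *Rock1* was at 41.1, 50.9 and 44.9 CPM in *ControlΔEC* and at 34.1, 24.2 and 25.6 CPM in *Wt1KOΔEC* libraries (log2 fold change -0.71, standard error 0.21, adjusted p = 0.234, edgeR's quasi-likelihood test), and its log2 fold change was -0.41 with length and GC content offsets. *Arhgef12*, the gene of a guanine nucleotide exchange factor that acts behind G12/13, was at 43.8, 53.2 and 59.0 CPM in *ControlΔEC* and at 35.1, 36.0 and 29.4 CPM in *Wt1KOΔEC* libraries (log2 fold change -0.63, standard error 0.19, adjusted p = 0.243, edgeR's quasi-likelihood test). For *Rock2* the log2 fold change was -0.54 with a standard error of 0.19, and -0.34 with the same offsets. *Gna13*, the G protein gene before them, overlapped between genotypes, with a log2 fold change of -0.39, and of -0.25 without *ControlΔEC* replicate 1.

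**Figure D4:**
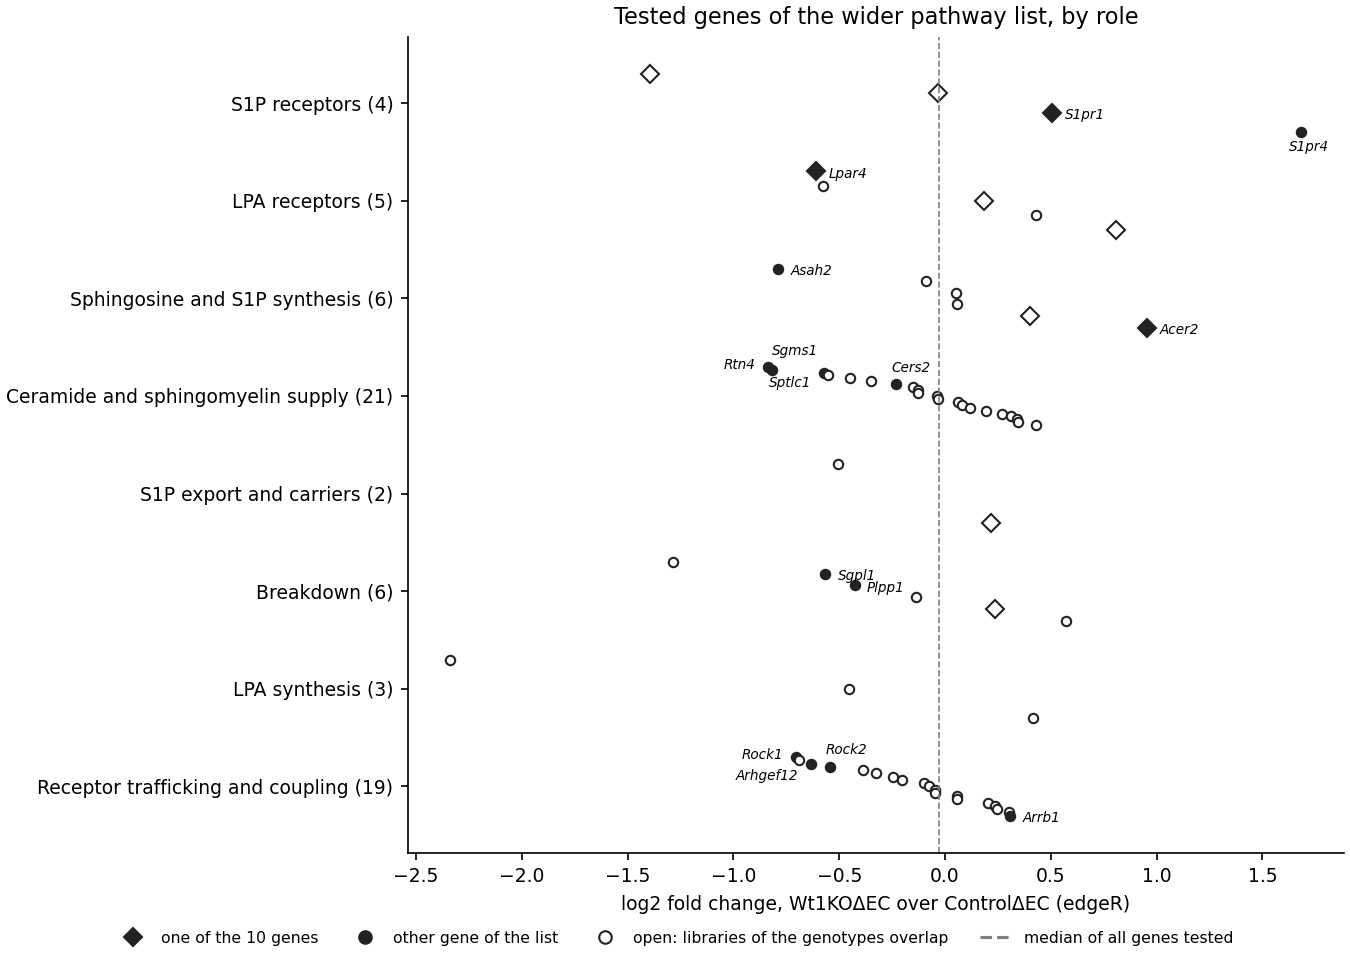
Log2 fold change (edgeR, *Wt1KOΔEC* over *ControlΔEC*) of the 66 tested genes of the wider list, by role with the number of tested genes; diamonds are the 10 members, filled symbols genes whose libraries do not overlap between genotypes (named), and the dashed line the median of all genes tested (-0.03). Filled symbols lie on the right for *S1pr1*, *S1pr4*, *Acer2* and *Arrb1* and on the left for the other 11.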

How the data were processed

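The authors sorted ECs, made libraries by the SMART-seq2 protocol and Nextera XT, which keep neither strand nor molecular identifiers, and ran STAR 2.7.8a and RSEM 1.3.0 with GENCODE vM27. The genome was GRCm39 in the methods and GRCm38 in the submitters' processing notes. What they deposited is a table of RSEM expected counts for each gene, rounded to whole numbers and not normalized. Genotype and replicate number came from the labels, which name no batch. Library identifiers run consecutively within each genotype, so a batch and the genotype cannot be told apart.

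Genes that reached 10 counts in 2 or more of the 6 libraries (16296) were tested in R 4.3.3 with edgeR 4.0.16 (TMM, quasi-likelihood F test, Benjamini-Hochberg adjustment over all genes tested). The threshold was an adjusted p under 0.05 together with a log2 fold change beyond 0.58 in either direction, the fold limit of the methods, which used DESeq2 1.18. Alternatives were DESeq2 1.42.0, limma-voom (limma 3.58.1), RLE and upper-quartile normalization, other filters, no fold limit, a block for the replicate number, length and GC content offsets (natural splines, 5 degrees of freedom, 16238 genes) with and without the block, and each library left out. Fits were also run on simulated counts with log2 fold changes larger than those of the 10 genes in the main fit. This does not show how well differences of the sizes reported here are found. DESeq2 on the genes kept for edgeR and the 500 genes nearest in GC content were chosen after seeing the data. CPM are counts scaled to a common, TMM-adjusted library total, and values per kb divide them by the union of a gene's exons. Positions, lengths and overlaps are from GENCODE vM39 on GRCm39, and motifs were searched in RefSeq promoters on GRCm38.p6, with no coordinates moved between builds. The 10 genes, the 75 pathway genes and the marker lists were chosen with earlier results of these data known. Of the 75, the text names those called by edgeR or DESeq2, those not detected or not tested, up to 10 more by the smallest unadjusted p in edgeR, and, chosen for role after values were seen, *Acer3*, *Asah1*, *Sphk2*, *Lpar2*, *Lpar3* and *Arrb1*. Of each marker list the gene of highest level and those called by edgeR are named. *Rgs5*, *Pdgfrb*, *Cspg4*, *Acta2*, *Kcnj8*, *Notch3*, *Tagln*, *Nkx2-5*, *Myh11* and *Wif1* were added after their values were seen.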

Additional observations from a re-analysis of the deposited data

How the results depend on the processing

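The number of genes past the threshold depended on the count model and the filter. It was 12 of 16296 in edgeR's quasi-likelihood test, 767 in DESeq2, 599 in DESeq2 on the genes kept for edgeR, an alternative added after seeing the data, and 296 without a filter on low counts. Single libraries left out gave 2 (without *Wt1KOΔEC* replicate 3) to 37 (without *ControlΔEC* replicate 3), and each of the 6 moved the count by over 1.5 times. Of the 10 genes, 0 passed in edgeR, 2 (*Acer2* and *Lpar4*) in either DESeq2 fit and 1 (*Acer2*) without the filter, and 3 had an unadjusted p under 0.05. Of the 75 pathway genes, 0 passed in edgeR, 5 in DESeq2, 3 in DESeq2 on the genes kept for edgeR and 2 without the filter.

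Correlations of the libraries' deviations were 0.057, 0.004 and 0.02 for same-numbered replicates 1, 2 and 3, and -0.043 to 0.025 for differently numbered ones. All are close to 0 and rest on 3 libraries per genotype, so they cannot settle whether the numbers pair the samples. The methods describe a cross that gave both genotypes in the same litter, but no litter is given for the libraries. With the replicate block 5 genes passed, also with length and GC offsets beside it, and 0 of the 10 members or the 75 pathway genes.

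Of 170 alternative fold changes of the 10 genes, 11 had the opposite sign, in genes whose genotypes overlap. *S1pr2* (-0.03) gave 0.57 in limma-voom, 0.33 with the block, 0.30 with block and offsets, 0.46 and 0.15 without *ControlΔEC* replicates 1 and 3, and 0.044 and 0.0081 without *Wt1KOΔEC* replicates 1 and 3, within -0.52 to 0.46 over single libraries left out. *S1pr3* gave 2.54 in limma-voom, *Lpar6* -0.054 without *ControlΔEC* replicate 2 (at most 0.44 with another library left out), and *Sphk1* -0.24 (at most 0.73) and *Spns2* -0.10 (at most 0.43) without *Wt1KOΔEC* replicate 2. The cause was not tested. Of 80 alternative levels per kb, 8 moved by over 1 SD, each with the longest transcript's length in place of the union of exons, *Acer2* in both genotypes among them. Depth sets the floor that stands in for 0 counts (*S1pr3*, *Lpar1*) and for genes at or under it. The 0 counts lay in the deepest libraries, *ControlΔEC* replicate 2 for *S1pr3* (44736496 counts) and replicate 1 for *Lpar1* (44779020 counts). For *S1pr2*, *S1pr3*, *Lpar1* and *Sphk1* the spread between libraries of 1 genotype sets the limit, and for *Lpar4* the fold change moves with length and GC content offsets.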
